A study of Homo sapiens with 8 samples.

Results

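Structured small RNAs and the longer transcripts that host them were compared in 8 clones of PC-3, a human prostate cancer line that grows without androgen. The 49 genes were taken by symbol from the 14884 genes that the array's probe table names: small nucleolar and small nuclear RNA families, snaR genes, vault RNAs, Y RNAs, 7SL and 7SK RNAs, the RNAs of RNase MRP, RNase P and telomerase, the snoRNA host genes, and the nuclear transcripts MALAT1 and NEAT1. The rule found 23 small Cajal body RNAs (scaRNAs), 8 snaR genes, 4 vault RNAs, 3 RNAs of enzymes (RMRP, RPPH1 and TERC), 10 snoRNA host genes and MALAT1. No RNU, RNY, SNORA, SNORD or RN7S gene and no NEAT1 was among the 14884 genes. Spliceosomal RNAs, Y RNAs, ordinary snoRNAs and the 7SL and 7SK RNAs were therefore not analysed here. Probe sets paired with no symbol or with several were not assigned to a gene. A gene outside the 14884 is called not measured. The RefSeq gene table files the 8 snaR genes under the biotype snRNA. They are not RNAs of the spliceosome.

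Of the clones, 4 had received RWDD4 on a lentiviral vector (clones 17, 24, 5 and 6) and 4 the same kind of vector without an insert (clones 2, 3, 4 and 5), and all had been selected with blasticidin. Each clone gave 1 array of total RNA, so a group difference is a difference between 4 and 4 isolates of a single line, and the labels name no promoter for the insert. Values are log2 signals deposited by the authors after RMA, which places a gene's signal relative to the other signals on the same array. Less of an RNA per cell and more of the other RNAs therefore cannot be told apart.

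Small structured RNAs work inside ribonucleoprotein particles. The scaRNAs are guides that sit in Cajal bodies, nuclear bodies rich in coilin, and direct the 2′-O-methylation (box C/D guides) or pseudouridylation (box H/ACA guides) of spliceosomal RNAs. Most are cut from introns of a host transcript. snaR transcripts are primate-specific RNAs made by RNA polymerase III and bound by the double-stranded RNA binding protein NF90. Vault RNAs are polymerase III transcripts named after the vault particle. RMRP and RPPH1 are the RNAs of 2 related endonucleases that process ribosomal and transfer RNA precursors, and TERC is the template RNA of telomerase. The SNHG genes and GAS5 carry guide RNAs in their introns. Which part of these transcripts the probes read was not tested. All total RNA had been purified on RNeasy columns, which are known to retain short RNAs poorly. That applies to both groups alike, and a difference in recovery between the preparations was not tested.

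Across all genes, 46.7% passed the test in either direction (limma, Benjamini-Hochberg adjusted p under 0.05 over 14884 genes), 25.1% up and 21.6% down in RWDD4 clones. RWDD4 itself lay at 9.87 to 10.46 in the RWDD4 clones, against 6.64 to 8.0 in the control clones (exact permutation p 0.0286, two-sided, the smallest that 4 against 4 allow). Of the 6 markers listed for the line's epithelial origin and state 5 were measured, and CDH1 was not. The keratins KRT8, KRT18 and KRT19 fell (-0.28, -0.40 and -0.54, adjusted p 0.0289, 0.0144 and 0.00571 by limma). VIM, the mesenchymal filament vimentin, rose (0.73, adjusted p 0.000337) and EPCAM did not pass (0.13). The part of these markers in the results was not tested. Of the blood markers listed, CD14 and CD68 were measured, and of the stromal and endothelial markers THY1, PECAM1 and VWF. The sums of their log2 values in the RWDD4 clones ran from 14.12 to 14.7 (blood) and 15.87 to 16.23 (stroma). In the control clones the sums ran from 14.64 to 15.4 and from 16.54 to 17.13. CD14, CD68, THY1 and VWF fell (-0.42, -0.39, -0.36 and -0.31, limma adjusted p 0.0159, 0.0488, 0.0327 and 0.035). PECAM1 did not pass (-0.13). Of the prostate markers listed KLK3 and KLK2 were measured, and neither passed (-0.05 and -0.08). CD14 and VWF were below the median of the probe sets in the mean of all arrays. Arrays also differed along a leading axis of variation within the groups, on which control clone 2 stood farthest out at -58.4, while the RWDD4 clones lay at 19.7 to 35.9 and the remaining control clones at -24.4 to -12.2. The groups do not overlap on this axis, so a fit with it as a covariate has little left to estimate the group difference from.

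Most of the small RNAs were lower in the RWDD4 clones. Of the 38 small RNAs 30 fell, 8 did not pass and 0 rose (median difference -0.68, RWDD4 minus control, against -0.08 over all genes). With any single clone left out, between 16 (without RWDD4 clone 5) and 30 of them fell, and 19 fell without RWDD4 clone 6. Of the 10 host genes 2 rose, 1 fell and 7 did not pass (median 0.13). Over all 49 genes 31 fell and 3 rose, where 21.6% and 25.1% of all genes did. In 23 of the 49 the groups did not overlap with the RWDD4 clones lower, against 21.1% of all genes, and in 2 with the RWDD4 clones higher, against 23.7%. With each array's position on the axis as a covariate, 0 of the 49 passed and the median of the small RNAs was 0.18.

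**Figure D1:**
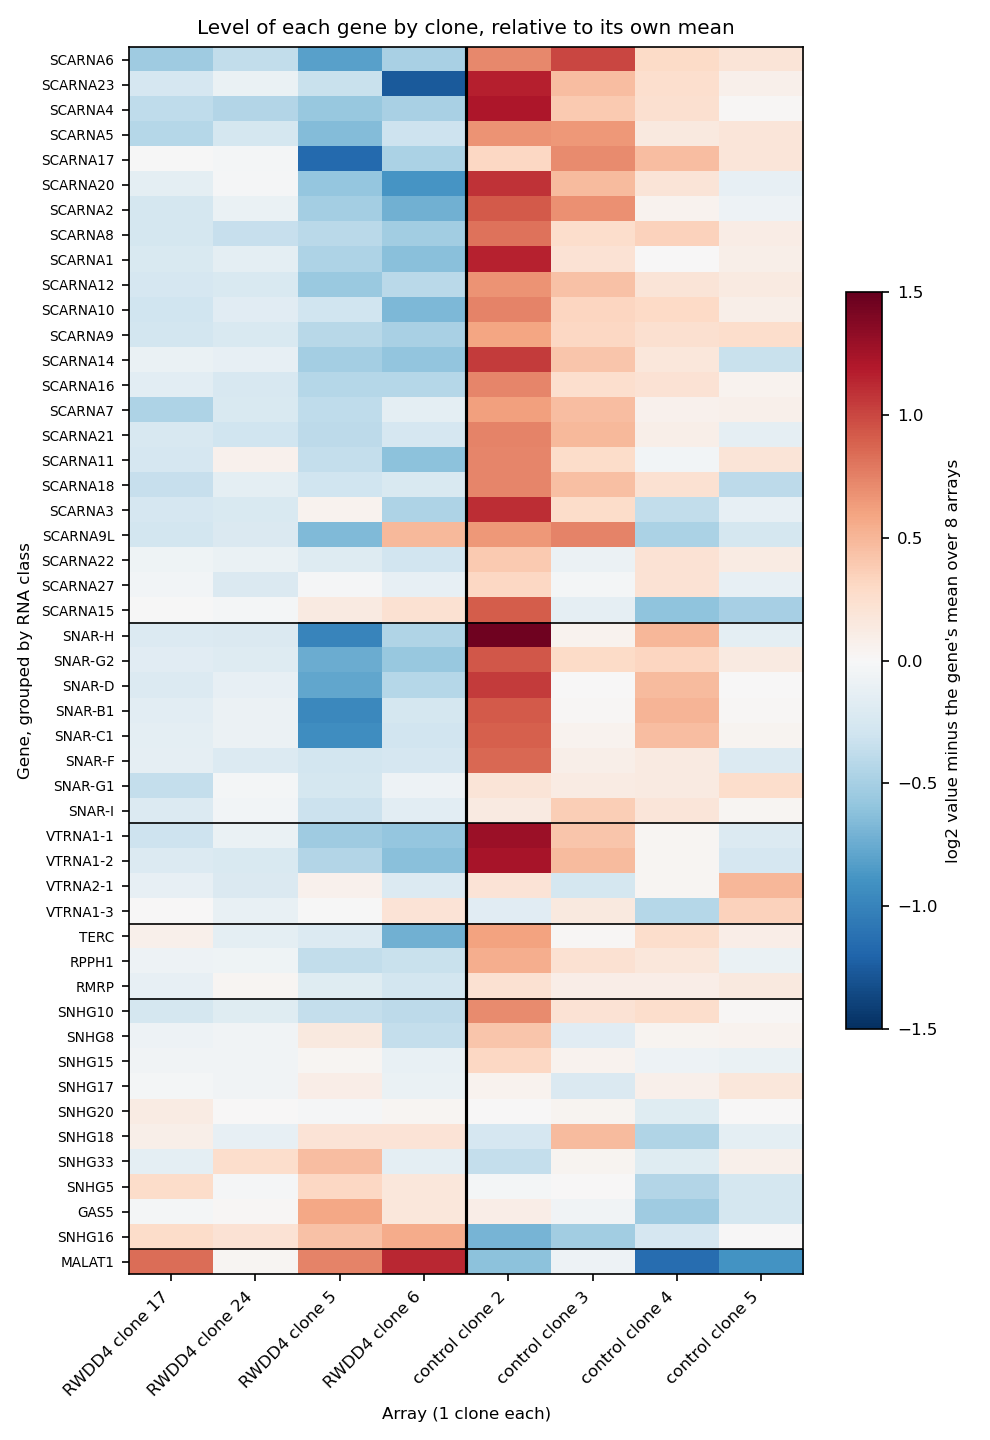
Level of each of the 49 genes (rows, grouped by RNA class with black lines between classes) in the 8 clones (columns, RWDD4 clones left of the vertical line, control clones right), as the log2 value minus that gene's mean over the 8 arrays. Control clone 2 is the darkest red column among the scaRNA, snaR and vault RNA rows, for most genes, with RWDD4 clones 5 or 6 the darkest blue, and among the host genes SNHG10 comes closest to this pattern.

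Short genes of other kinds are the nearest comparison. Of 1106 other genes with an annotated span under 500 bases, nearly all of them microRNA genes, 17.3% fell and 3.71% rose (median -0.11). Many of those lay at a low signal. Among the 382 of them whose mean was above the median of all probe sets, 35.3% fell and 4.71% rose (median -0.24), and 36 of the 38 small RNAs were above that level. The 38 were chosen with results of these arrays known, so these shares are set side by side and not tested.

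The guides of the Cajal body made up the largest class. Of the 23 scaRNAs 18 fell, 0 rose and 22 had a difference below 0, over a range of -1.1 to 0.16 (median -0.70). Among all 14884 genes 21.6% fell and 8834 had a difference below 0. The 5 with the largest falls were SCARNA6, SCARNA23, SCARNA4, SCARNA5 and SCARNA17. SCARNA6, a guide of the composite kind with both box C/D and box H/ACA parts, had 9.07, 9.23, 8.79 and 9.11 in RWDD4 clones 17, 24, 5 and 6, against 10.32, 10.6, 9.88 and 9.79 in control clones 2, 3, 4 and 5. All RWDD4 clones lay below all control clones, and the difference of -1.10 (SE 0.18) is 2.14-fold lower (limma adjusted p 0.000650).

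SCARNA23, a box H/ACA guide, had 6.83, 6.98, 6.75 and 5.82 in the RWDD4 clones in the same order, against 8.25, 7.54, 7.33 and 7.16 in the control clones. RWDD4 clone 6 was the lowest and control clone 2 the highest, and the groups did not overlap (difference -0.97, SE 0.28, adjusted p 0.0154). SCARNA4, also of the H/ACA kind, lay close together in the RWDD4 clones, at 9.28 to 9.47, and spread over 9.87 to 11.06 in the control clones, with clone 2 at the top. Its difference was -0.93 with control clone 2 and -0.69 without it.

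SCARNA5, the other composite guide of this group of 5, averaged 10.11 ± 0.17 in the RWDD4 clones and 10.95 ± 0.29 in the control clones (SD, n = 4 each; adjusted p 0.00112 by limma). SCARNA17, a box C/D guide, had 10.16, 10.14, 9.0 and 9.69 in the RWDD4 clones, against 10.48, 10.87, 10.63 and 10.34 in the control clones. The low value of RWDD4 clone 5 widened the spread of that group to an SD of 0.54, and the difference of -0.83 (SE 0.23) passed with any single clone left out. Of the 18 scaRNAs that fell 13 did so. SCARNA20, SCARNA1 and SCARNA11 passed in 6 of 8 such fits, SCARNA22 in 2 and SCARNA14 in 1.

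By type of guide, all 4 composite guides fell (median -0.78), with SCARNA10, which modifies the U5 RNA, at 9.13 to 9.63 in the RWDD4 clones, against 9.89 to 10.55 in the control clones (difference -0.73, SE 0.15). Of the 5 box C/D guides 4 fell (median -0.70). SCARNA2 and SCARNA9, which methylate the U2 RNA, differed by -0.79 (SE 0.22) and -0.70 (SE 0.11), and neither overlapped between the groups. The fifth, SCARNA9L, is an X-linked copy of SCARNA9 and lay at 5.87 to 7.02 in the RWDD4 clones, against 6.06 to 7.28 in the control clones (difference -0.33, SE 0.30, adjusted p 0.387). Whether its probes also read SCARNA9 was not tested.

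Of the 13 box H/ACA guides 10 fell (median -0.62). SCARNA8, which pseudouridylates the U2 RNA, averaged 8.97 ± 0.11 in the RWDD4 clones and 9.73 ± 0.30 in the control clones (SD, n = 4 each; limma adjusted p 0.00158). Control clone 2 was the highest of the 8 clones for all 13. The same clone was the highest for 3369 of all 14884 genes, and for 102 of the 382 other short genes above the median level. Without that clone the median of the 13 was -0.44, and that of all scaRNAs was -0.51 with 16 of 23 fallen. SCARNA18 and SCARNA3 did not pass, at -0.51 (adjusted p 0.0535) and -0.44 (adjusted p 0.195).

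The 2 scaRNAs nearest to no difference were SCARNA15 and SCARNA27. SCARNA15, known for yielding a Dicer-processed microRNA-like fragment, had 5.52, 5.5, 5.67 and 5.76 in the RWDD4 clones, against 6.44, 5.39, 4.93 and 5.03 in the control clones. All RWDD4 clones lay between control clone 2 and the other control clones, so the difference of 0.16 (adjusted p 0.641) became 0.49 (adjusted p 0.00998, limma) without control clone 2. SCARNA27, whose box type is not assigned here, overlapped between the groups at 6.92 to 7.12 and 7.02 to 7.45 in RWDD4 and control clones.

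**Figure D2:**
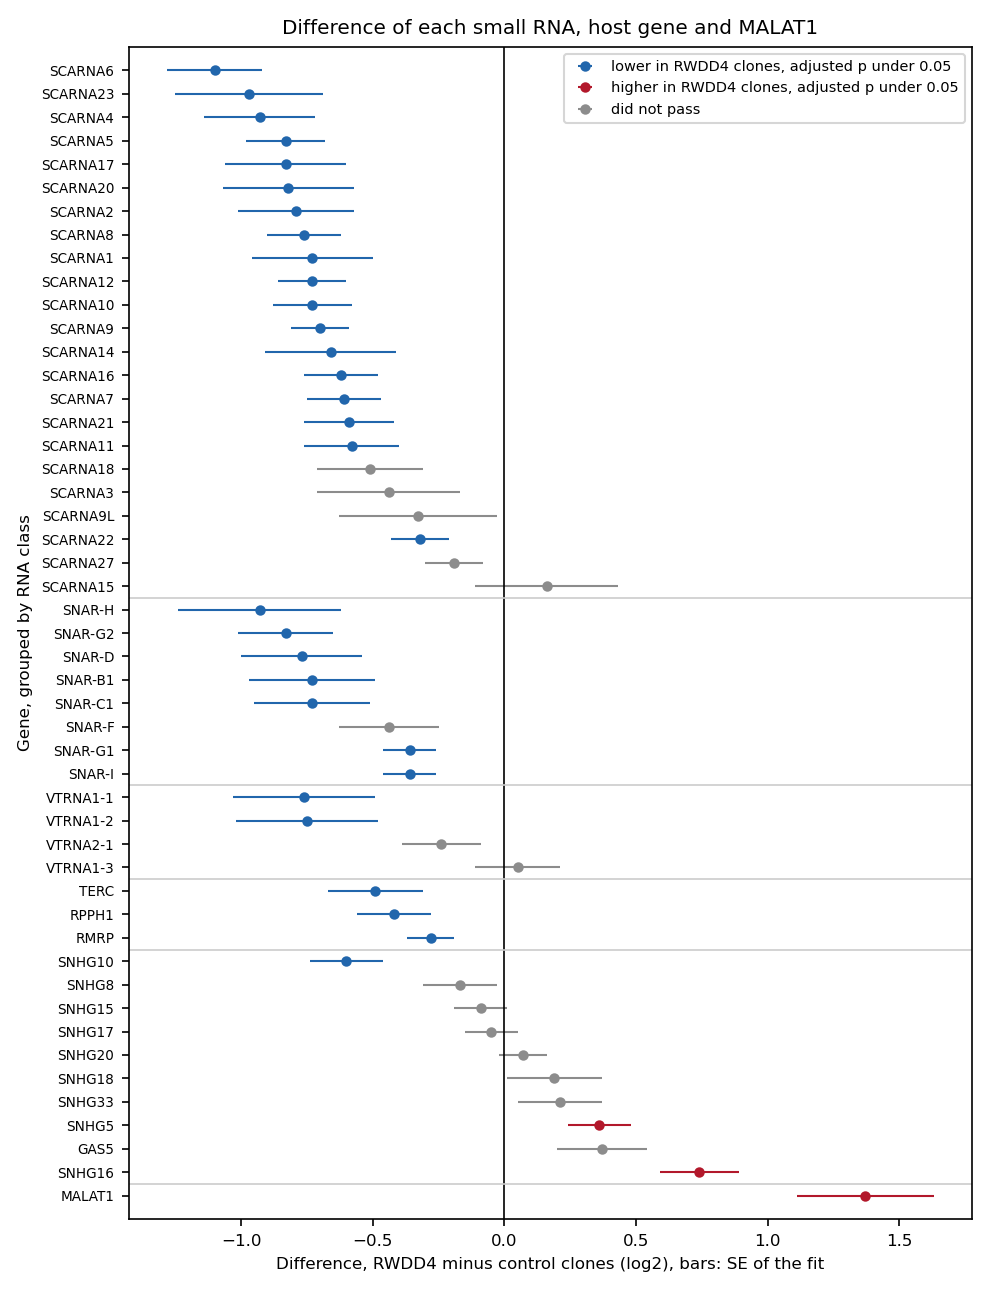
Difference between RWDD4 and control clones (x axis, log2, RWDD4 minus control) for each of the 49 genes (y axis, grouped by RNA class), with bars for the standard error of the fit and colours for genes that passed the test lower (blue), higher (red) or not at all (grey). Blue points are 18 of the 23 scaRNAs, 7 of the 8 snaR genes, VTRNA1-1, VTRNA1-2, RMRP, RPPH1, TERC and SNHG10. The red points are SNHG5, SNHG16 and MALAT1.

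Around the scaRNAs that fell, the holding gene more often rose than fell, and the difference between guide and gene was not itself fitted. According to the RefSeq gene table, 22 of the 23 scaRNAs lie within the span of another gene, and SCARNA2 does not. For 13 of the 22 a gene that holds them was measured, which made 12 genes, since SCARNA5 and SCARNA6 both lie in ATG16L1. The table gives no strand for the scaRNAs, so whether a holding gene is the host was not tested, and several scaRNAs lie in more than 1 gene. Of the 12 holding genes 7 rose and 1 fell, beside 25.1% and 21.6% of all genes, over a range of -0.28 to 1.60 (median 0.42).

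The largest contrast was SCARNA7 in KPNA4, an importin alpha of nuclear import. KPNA4 had 8.96 to 9.29 in the RWDD4 clones, against 6.79 to 8.03 in the control clones, and rose by 1.60 (SE 0.23, adjusted p 0.000326 by limma). SCARNA7 fell by 0.61 (SE 0.14), to 8.99 to 9.31 in the RWDD4 clones, against 9.51 to 10.07 in the control clones. TIPIN, a replication fork protector that holds SCARNA14, rose by 1.22 (SE 0.15), and CEP295 of the centriole, which holds SCARNA9, by 1.13 (SE 0.14).

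NSD2, a histone methyltransferase, rose by 0.77 (SE 0.16), while SCARNA22 within its span fell by 0.32 (SE 0.11). The chromatin remodellers CHD4 and CHD3 rose by 0.64 and 0.55, and SCARNA11 and SCARNA21 within them fell by 0.58 and 0.59. ATG16L1 of autophagy rose by 0.27 (SE 0.10, adjusted p 0.0429) and passed in 2 of 8 fits that leave out a clone, and not after quantile normalization (0.10) or with the trend over genomic span removed (0.12, adjusted p 0.319). It supplies 2 of the pairs counted next. In 8 of the 11 pairs whose scaRNA fell, the holding gene rose. In the other 3 it did not pass, as in KHDC4 with SCARNA4 (0.07), PHB2 with SCARNA12 (-0.08) and SNHG20 with SCARNA16 (0.07). Among the scaRNAs of the 8 pairs, SCARNA14, SCARNA22 and SCARNA11 overlapped between the groups (limma adjusted p 0.0491, 0.0376 and 0.0218). These scaRNAs passed in 1, 2 and 6 of 8 fits that leave out a clone.

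FSD2, which holds SCARNA15, was the holding gene that fell, by 0.28 (SE 0.10). A pair sets a short gene against a long one, and other genes under 500 bases fell more often than they rose (17.3% against 3.71%). Whether the contrast is particular to guides and the genes around them was not tested. With the axis as a covariate neither the scaRNAs nor the holding genes passed, and KPNA4, TIPIN and CEP295 lay at 0.27, 0.49 and 0.52 there. Control clone 2 was also set apart in the holding genes: CHD4 lay at 8.82 in it against 9.52 to 9.62 in its group otherwise.

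**Figure D3:**
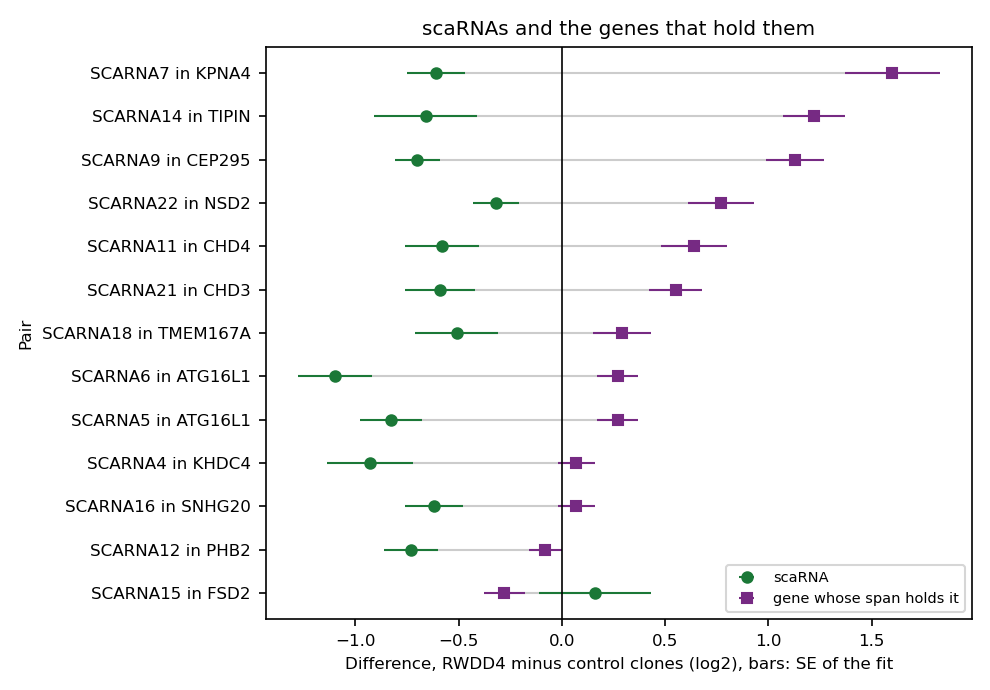
Difference between RWDD4 and control clones (x axis, log2, RWDD4 minus control, bars: SE of the fit) for 13 scaRNAs (green circles) and for the measured gene whose span holds each (purple squares), 1 pair per row. The circle lies left of the square in all pairs but SCARNA15 with FSD2, and the gap is widest for SCARNA7 in KPNA4.

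Of the 8 snaR genes 7 fell, and all 8 had a difference below 0 (-0.93 to -0.36, median -0.73). Among all 14884 genes 21.6% fell and 8834 had a difference below 0. SNAR-B1 had 11.64, 11.71, 10.83 and 11.53 in RWDD4 clones 17, 24, 5 and 6, against 12.72, 11.81, 12.31 and 11.81 in control clones 2, 3, 4 and 5. SNAR-C1 had 11.5, 11.56, 10.72 and 11.37 in the RWDD4 clones, against 12.55, 11.7, 12.12 and 11.69 in the control clones. After each gene's mean was taken off, the pair never differed by more than 0.04 on any array. Both differed by -0.73, with standard errors of 0.24 and 0.22 and adjusted p of 0.0270 and 0.0217.

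SNAR-B1 and SNAR-C1 are closely related members of repeated arrays of snaR genes, and the array platform has 3 probe sets for SNAR-B1 and 5 for SNAR-C1. Several of these held the same value on all 8 arrays: 2 of those for SNAR-B1 matched each other, as did 2 and another 3 of those for SNAR-C1. Their signals are therefore not independent measurements, and the signal may be shared between copies of the family. SNAR-D, with 1 probe set and a difference of -0.77 (SE 0.23), followed SNAR-C1 to within 0.15 on every array after centring. SNAR-H had the largest fall, at 8.92, 8.91, 8.13 and 8.67 in the RWDD4 clones, against 10.58, 9.17, 9.62 and 8.97 in the control clones (difference -0.93, SE 0.31, adjusted p 0.0317).

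SNAR-G2 averaged 8.19 ± 0.28 in the RWDD4 clones and 9.03 ± 0.35 in the control clones (SD, n = 4 each) and fell with any single clone left out (limma adjusted p 0.00411 with all clones). SNAR-G1 and SNAR-I, nearest to no difference among the 8, both lay at -0.36 (SE 0.10 each). They differed from the others in that control clone 2 was not their highest array: SNAR-G1 had 7.02, 6.96, 6.97 and 7.1 in control clones 2 to 5, and SNAR-I had 8.1, 8.34, 8.15 and 8.0. With the axis as a covariate these 2 stayed below 0, at -0.38 and -0.37, and the class median turned to 0.39. Without RWDD4 clone 5, the lowest clone for 7 of the 8, 3 of the snaR genes fell, and 4 fell without control clone 4. SNAR-F did not pass, at -0.44 (adjusted p 0.0785).

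**Figure D4:**
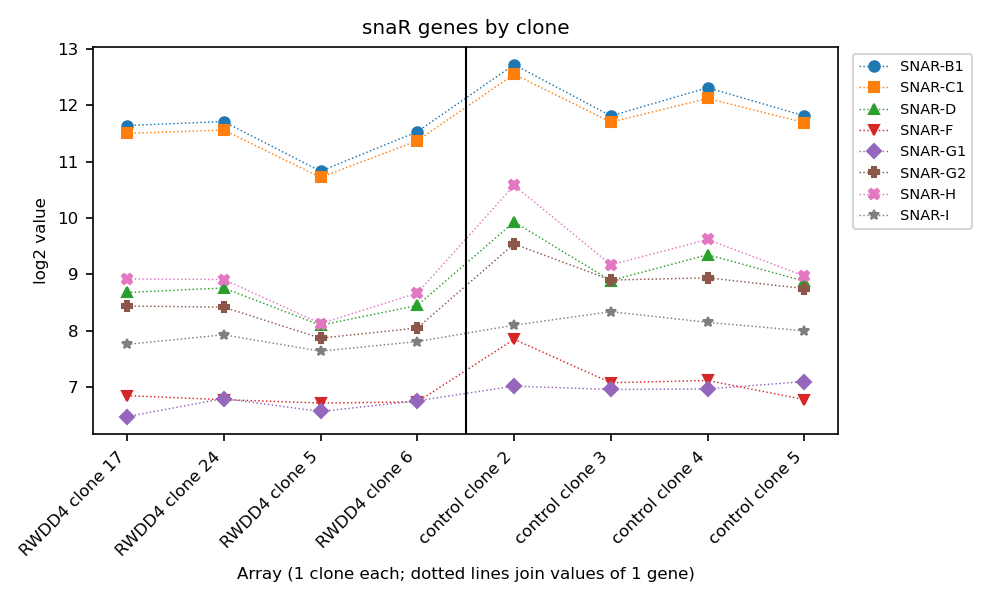
Values of the 8 snaR genes (y axis, log2) in each clone (x axis, RWDD4 clones left of the vertical line, control clones right), 1 marker per gene, with dotted lines joining the values of a gene. SNAR-B1 and SNAR-C1 run in parallel at 10.72 to 12.72, RWDD4 clone 5 is low and control clone 2 high for both, and SNAR-G1 and SNAR-I stay flat in comparison.

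Among the 4 genes named as vault RNAs, VTRNA1-1 and VTRNA1-2 fell and the others did not pass. Whether each of them is part of the vault particle was not tested. VTRNA1-1 had 6.14, 6.35, 5.92 and 5.87 in the RWDD4 clones, against 7.73, 6.87, 6.48 and 6.24 in the control clones. Control clone 5 lay within the range of the RWDD4 clones. The difference was -0.76 (SE 0.27, adjusted p 0.0390), and it passed in 4 of the 8 fits that leave out a clone. VTRNA1-2 followed it at 7.26 to 7.68 in the RWDD4 clones, against 7.63 to 9.12 in the control clones (-0.75, SE 0.27, adjusted p 0.0395). It passed in 3 of 8 such fits, and failed without any 1 of the RWDD4 clones or without control clone 3 (adjusted p up to 0.100). Neither passed after median centring or with the trend over genomic span removed.

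VTRNA1-3 averaged 4.06 ± 0.14 in the RWDD4 clones and 4.0 ± 0.34 in the control clones, and VTRNA2-1 averaged 3.24 ± 0.13 and 3.48 ± 0.32 (SD, n = 4 each). Both were below the median over probe sets of 4.92, and no background level was measured here. VTRNA2-1 is known to be silenced in a part of human tumours.

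The 3 enzyme RNAs all fell, by less than most scaRNAs. RMRP, the RNA of RNase MRP, had 12.91, 13.06, 12.85 and 12.76 in the RWDD4 clones, against 13.26, 13.13, 13.13 and 13.18 in the control clones. The groups did not overlap, and the difference was -0.28 (SE 0.09, adjusted p 0.0287). The highest value in the whole table was 13.96, so this RNA sat near the top of the array's range. RPPH1, the RNA of RNase P, averaged 7.73 ± 0.16 in the RWDD4 clones and 8.16 ± 0.27 in the control clones (SD, n = 4 each; limma adjusted p 0.0289).

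TERC had 11.1, 10.88, 10.82 and 10.3 in the RWDD4 clones, against 11.62, 11.04, 11.29 and 11.12 in the control clones. RWDD4 clone 17 lay above control clone 3, so the groups overlapped (difference -0.49, SE 0.18, adjusted p 0.0400). TERT, the reverse transcriptase that TERC serves, also fell, by 0.37 (SE 0.14, adjusted p 0.0427), and passed in 2 of 8 fits that leave out a clone. Each of the 3 enzyme RNAs passed in 3 of 8 such fits, and 0 of the 3 passed after median centring or with the trend over genomic span removed.

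The host genes carry guide RNAs in their introns. Of the 10 measured here 2 rose, 1 fell and 7 did not pass, beside 25.1% of all genes up and 21.6% down. Their starts are shown because many genes of this kind belong to the 5′TOP class. Transcripts of that class open with a C followed by pyrimidines, and their translation depends on growth signals. RefSeq windows (build GRCh38.p14) were at hand for 9 of the 10 and for MALAT1, and for 0 of the 38 small RNAs. The stretches give 50 bases before and 50 bases after the annotated start of SNHG16 and SNHG5, which rose, SNHG10, which fell, and SNHG20, which holds SCARNA16. Capitals mark a C followed by at least 4 C or T that begins within 5 bases of the start, and a TATA motif (TATAAA or TATATA) before the start.
SNHG16, chr17:76557714-76557813, plus strand: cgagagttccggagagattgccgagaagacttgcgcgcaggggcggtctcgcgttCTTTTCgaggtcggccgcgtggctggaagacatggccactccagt
SNHG5, chr6:85678684-85678783, minus strand: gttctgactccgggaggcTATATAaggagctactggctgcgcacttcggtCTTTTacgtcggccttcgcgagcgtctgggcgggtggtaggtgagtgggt
SNHG10, chr14:95534823-95534922, minus strand: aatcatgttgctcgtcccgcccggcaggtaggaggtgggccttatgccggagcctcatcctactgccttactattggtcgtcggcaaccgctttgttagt
SNHG20, chr17:77088593-77088692, plus strand: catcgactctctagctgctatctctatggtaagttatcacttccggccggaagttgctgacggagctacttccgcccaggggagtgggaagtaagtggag

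SNHG16 and SNHG5, the 2 host genes that rose, both show the pyrimidine tract, and SNHG5 also the TATA motif, while SNHG10 and SNHG20 show neither. The tract was found in 6 of the 12 windows of the host genes and MALAT1, and in 21.1% of 35116 windows of all genes, and the TATA motif on either strand in the 50 bases before the start in 2 of the 12 and in 4.30% of all. SNHG17, SNHG18 and SNHG8 carry the tract too and did not pass the test, and so does 1 of the MALAT1 windows. The octamer ATGCAAAT, searched on both strands over 300 bases, was in 0 of the 12 and in 1.77% of all windows. A match describes letters in the window and no more.

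SNHG16, which hosts the SNORD1 guides, had 10.87, 10.81, 11.03 and 11.15 in the RWDD4 clones, against 9.9, 10.07, 10.34 and 10.6 in the control clones. All RWDD4 clones were higher, and the rise of 0.74 (SE 0.15) is 1.67-fold (limma adjusted p 0.00262) and passed with any single clone left out. SNHG5, host of the SNORD50 guides, had 7.7, 7.41, 7.73 and 7.59 in the RWDD4 clones, against 7.39, 7.43, 6.99 and 7.16 in the control clones. RWDD4 clone 24 lay at the level of control clones 2 and 3, and the rise of 0.36 (SE 0.12, adjusted p 0.0301) passed in 3 of 8 fits that leave out a clone and not after quantile normalization (adjusted p 0.270).

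SNHG10, which holds SCARNA13, a scaRNA not analysed here, had 7.95, 8.03, 7.86 and 7.82 in the RWDD4 clones, against 8.92, 8.43, 8.48 and 8.23 in the control clones. It was the 1 host gene that fell, by 0.60 (SE 0.14), or 1.52-fold lower (adjusted p 0.00486), and did so with any single clone left out. GAS5, a host of many box C/D guides that is known to accumulate when growth arrests, had 6.46, 6.51, 7.07 and 6.66 in the RWDD4 clones, against 6.59, 6.44, 5.95 and 6.23 in the control clones. The groups overlapped and the difference of 0.37 did not pass (adjusted p 0.0861), but did with the trend over genomic span removed (0.56, adjusted p 0.0171) and without control clone 2 (0.47, adjusted p 0.0393).

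The other 6 host genes differed by -0.17 to 0.21 and did not pass. SNHG17 and SNHG20 were nearest to no difference, at -0.05 and 0.07. SNHG20 lay at 8.39 to 8.53 in the RWDD4 clones, against 8.23 to 8.45 in the control clones, while SCARNA16 from within its span lay at 9.99 to 10.26 and 10.46 to 11.14 in RWDD4 and control clones.

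MALAT1, a long transcript of nuclear speckles whose own 3′ end is cut to yield a small transfer RNA-like RNA, was the gene of the 49 with the largest rise. It had 8.1, 7.29, 8.0 and 8.39 in the RWDD4 clones, against 6.65, 7.18, 6.12 and 6.36 in the control clones. RWDD4 clone 24 and control clone 3 lay closest without overlap, and the difference was 1.37 (SE 0.26), or 2.58-fold (limma adjusted p 0.00167). The array has 2 further probe sets for MALAT1, and fitted among all probe sets these differed by 1.0 (SE 0.42, adjusted p 0.104) and 0.36 (SE 0.28, adjusted p 0.369). Their order of clones also differed, with RWDD4 clone 6 the lowest RWDD4 clone in both and the highest in the probe set used, so the size of the rise depends on the probe set.

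In 11 of 13 lists of protein partners more genes rose than fell, beside 25.1% of all genes up and 21.6% down. In the fit limited to genes whose mean was above the median of all probe sets, 3537 of 10557 rose and 2941 fell. Whether a list differs from these shares was not tested. Of 26 measured proteins of the spliceosomal particles 11 rose and 2 fell (median 0.27), led by SNRPD1 of the Sm ring at 1.52 and SNRNP70 of the U1 particle at -0.48. Of 14 measured genes for the assembly and import of these particles 9 rose and 1 fell (median 0.61). COIL, which encodes the coilin of the Cajal body, had the largest rise there, at 7.83 ± 0.09 in the RWDD4 clones and 6.55 ± 0.28 in the control clones (SD, n = 4 each; limma adjusted p 8.3e-05), and GEMIN7 of the SMN complex was the gene that fell, by 0.41.

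Of 15 genes for the 3′ processing and transcription of spliceosomal RNAs, 9 rose and 4 fell (median 0.73), with ICE2 of the little elongation complex at 1.78 and the Integrator subunit INTS5 at -0.58. Among 3 promoter factors of these RNAs ZNF143 rose by 1.44 and ZNF76 fell by 0.49. Of 8 measured genes of RNA polymerase III and its factors, which transcribe snaR, vault, RNase and many other small RNAs, 5 rose and 1 fell (median 0.44). POLR3B, the second-largest subunit of the enzyme, rose by 1.85 (SE 0.19), and MAF1, its repressor, fell by 0.47 (SE 0.10).

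For box C/D particles 3 of 8 genes rose (median 0.05), led by the assembly factor RPAP3 at 1.96. Of the particle's own proteins NOP58 rose by 1.77 (limma adjusted p 0.000115). FBL, the methyltransferase, and SNU13 did not pass (adjusted p 0.381 and 0.556). For box H/ACA particles and telomerase 5 of 8 rose and 1 fell (median 0.63), with PARN, which trims the tail of TERC, at 1.43. Of the H/ACA core genes measured, GAR1 rose by 0.48 (limma adjusted p 0.0129), and NHP2 and NOP10 did not pass (adjusted p 0.776 and 0.360). For RNase P and MRP 3 of 7 rose and 1 fell (median 0.09), with RPP40 at 1.06 and RPP25L at -0.47.

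MVP, the major vault protein, fell to 6.40 ± 0.46 in the RWDD4 clones, against 7.59 ± 0.22 in the control clones (SD, n = 4 each; difference -1.19, limma adjusted p 0.00104). SSB, the La protein that binds the 3′ end of new polymerase III transcripts, rose by 1.0 (SE 0.18). Of the 7 genes of the signal recognition particle and its receptor 5 rose and 0 fell (median 0.96), led by SRP72 at 2.18. Of the 6 of the 7SK particle 2 rose and 3 fell (median -0.14), with the cyclin CCNT1 at 1.47 and HEXIM2, an inhibitor of the elongation kinase, at -0.67.

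Of 6 paraspeckle proteins 4 rose and 0 fell, with TARDBP at 1.32, and of 14 genes of the nuclear exosome and its NEXT adaptor, which trim and degrade nuclear RNA, 9 rose and 2 fell (median 0.79). MTREX, the helicase of the exosome, rose by 2.56 (SE 0.31) and the exosome subunit EXOSC4 fell by 0.71 (SE 0.12). These counts stand beside 25.1% of all genes up and 21.6% down, and the lists were drawn up with earlier results of these arrays known. With the axis as a covariate 0 members of the 13 lists rose.

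**Figure D5:**
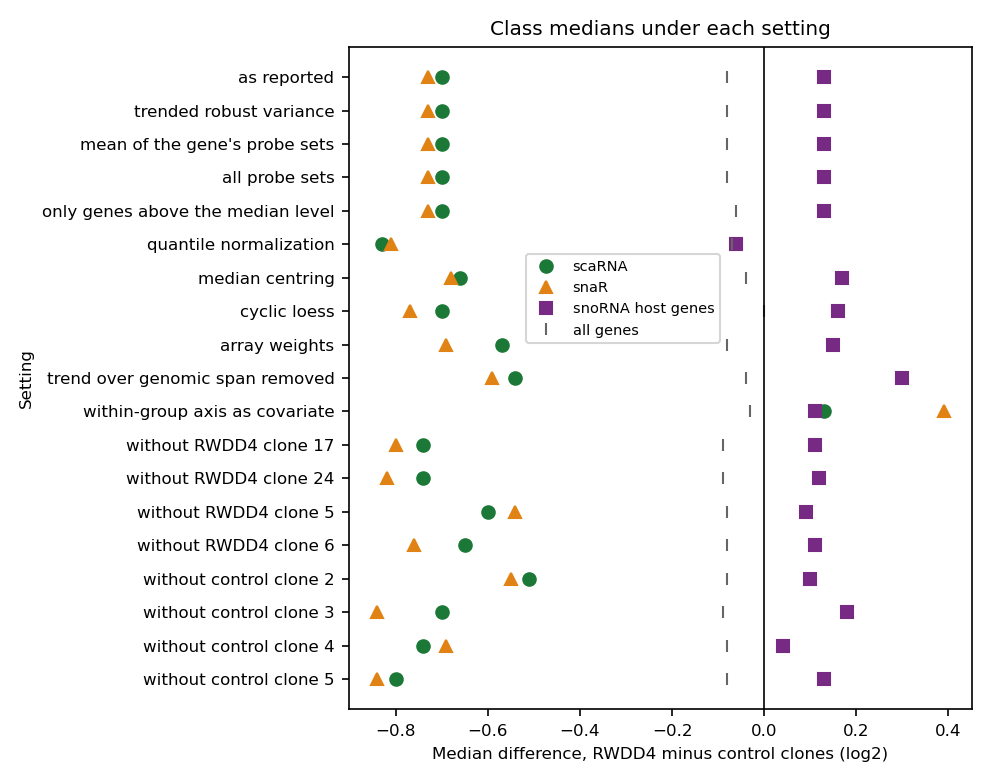
Median difference (x axis, log2, RWDD4 minus control) of the scaRNAs (circles), the snaR genes (triangles), the snoRNA host genes (squares) and all genes (ticks) under the reported fit and each alternative (y axis). The scaRNA and snaR medians lie between -0.84 and -0.51 in every setting but the fit that takes the within-group axis as a covariate, where they are 0.13 and 0.39.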

How the data were processed

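The authors deposited log2 signals for each probe set on each array. Per the submitters' processing notes, Partek and RMA were used, and no version, setting, genome build, batch or scan date is given in what was read. The table held 53617 probe sets, of which 16098 are paired with exactly 1 gene symbol, for 14884 genes. A gene with several probe sets was read from the one of highest mean, and no filter on low values was applied. RWDD4 minus control was fitted over all genes with lmFit and eBayes of limma 3.58.1 (R 4.3.3) as a two-sided test with no covariate, p-values were adjusted by Benjamini-Hochberg, and a gene rose or fell at an adjusted p under 0.05. The steps were tested on simulated data whose noise was drawn separately for each value. Variation shared by many genes of an array, such as the axis, was therefore not simulated. Nothing beyond the labels shows whether clones were processed separately, so p-values measure the spread between these samples.

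The members and all lists were chosen with earlier results of these data known. Named by rule were all vault, enzyme RNA, GAS5 and MALAT1 genes, the 5 largest called differences and the 2 smallest differences of each other class, the genes holding scaRNAs, and the member with the largest called difference per direction of each partner list, where the rule allows 3. Other names were chosen after their values were seen. The rule also asked for genes whose pattern is like that of the RNU genes, and with 0 of those measured it named none. Box types of scaRNAs are background knowledge. The planned restriction to hosts on the same strand was dropped because the gene table gives no strand. Gene spans and names come from RefSeq (GRCh38.p14). All 49 genes were found there by gene ID. Alternatives covered the variance model, the choice of probe set, a filter, 3 scalings, array weights, removal of each array's lowess trend (span 0.3) over genomic span, a covariate for the main axis along which arrays vary inside their groups, and leaving out each clone. No background level per probe was used, and the number of arrays limits the precision.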

Additional observations from a re-analysis of the deposited data

Results flagged for a closer look

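Of 168 groups of 4 clones over 84 genes named or described, 9 held a clone whose gap to its nearest neighbour, divided by the range of the group, was above Dixon's critical value of 0.829. Chance gives about 1 in 20 groups, so 9 of 168 is near the share that chance gives. Genes read on the same arrays do not vary independently. Control clone 2 was the clone set apart in 6 of the 9.

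Among the genes that hold scaRNAs, control clone 2 was low for CEP295 (gap ratio 0.952, at 4.51 against 4.89 to 4.91 in the rest of its group), CHD4 (0.876, at 8.82 against 9.52 to 9.62) and CHD3 (0.854, at 8.45 against 8.83 to 8.9). It was low for ICE2 (0.833, at 4.29 against 5.46 to 5.69) and POLR3B (0.867, at 6.1 against 6.87 to 6.98), and high for EXOSC4 (0.921, at 10.26 against 9.76 to 9.8). For SNHG20 control clone 4 was low (0.835, at 8.23 against 8.41 to 8.45).

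In the RWDD4 clones, clone 17 was low for RPAP3 (0.911, at 6.72 against 7.33 to 7.39), and clone 6 was low for RWDD4 itself (0.936, at 9.87 against 10.42 to 10.46). No scaRNA, snaR, vault or enzyme RNA was among the 9.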

How the results depend on the processing

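The falls of the scaRNAs and snaR genes kept their direction under every scaling, probe set rule, variance model and left-out clone tried, and lost it for most members once the within-group axis was a covariate. That axis separates the groups, and the cause was not tested. With that covariate 0 of the 49 genes were higher and 0 lower, with 0 scaRNAs, 0 snaR genes, 0 vault RNAs and 0 enzyme RNAs lower. Differences that changed sign there were SCARNA23 at 0.41, SCARNA4 at 0.24, SCARNA20 at 0.55, SCARNA2 at 0.19, SCARNA1 at 0.58, SCARNA10 at 0.02, SCARNA14 at 0.70, SCARNA16 at 0.13, SCARNA21 at 0.09, SCARNA11 at 0.22, SCARNA18 at 0.30, SCARNA3 at 0.78, SCARNA9L at 0.11, SCARNA22 at 0.13 and SCARNA27 at 0.18. So did SNAR-H at 0.91, SNAR-G2 at 0.16, SNAR-D at 0.53, SNAR-B1 at 0.42, SNAR-C1 at 0.37 and SNAR-F at 0.62, and VTRNA1-1 at 0.76, VTRNA1-2 at 0.70, VTRNA1-3 at -0.43, TERC at 0.30 and RPPH1 at 0.25. Of the host and holding genes SNHG10 turned to 0.12, SNHG8 to 0.37, SNHG15 to 0.29, SNHG18 to -0.28, SNHG33 to -0.22, ATG16L1 to -0.07 and CHD4 to -0.19, and of the partners INTS5 to 0.01, GEMIN7 to 0.16, TERT to 0.24 and RPP25L to 0.26. With the trend over genomic span removed 5 of the 49 were higher and 21 lower, with 0 vault and 0 enzyme RNAs lower, and SNHG8 lay at 0.02, SNHG15 at 0.10, SNHG17 at 0.03 and PHB2 at 0.11. After quantile normalization 34 of the 49 were lower, with SNHG20 at -0.11, SNHG18 at -0.01 and KHDC4 at -0.09. Median centring left 24 lower, with 0 vault and 0 enzyme RNAs, cyclic loess 29 with 1 vault RNA, and a fit over all probe sets 23 with 0 vault RNAs and 1 enzyme RNA. Over all genes 3741 were higher and 3214 lower as reported, 3980 and 2200 after cyclic loess, and 3945 and 2373 after median centring. With each clone left out in turn, 2 to 5 of the 49 were higher and 17 to 31 lower, with 13 to 18 scaRNAs, 3 to 8 snaR genes, 0 to 2 vault RNAs and 0 to 2 enzyme RNAs lower. SCARNA15 ranged from -0.01 to 0.49, VTRNA1-3 from -0.08 to 0.18 and SNHG17 from -0.13 to 0.0 there. VTRNA1-3 and VTRNA2-1 gave no value under the filter on level. No paired analysis was possible because the replicate numbers are clone numbers and the groups share only number 5. Background signal per probe was not used, so how far the low values of VTRNA1-3 and VTRNA2-1 lie above it is not known.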
